A study of Rattus norvegicus with 2 samples.

Results

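Neural stem cells of the rat cortex were sorted by their level of Cdkn1a (ENSRNOG00000000521), and the cells highest in it were set against the cells lowest in it in each of 2 libraries. Cells entered with at least 5000 unique molecular identifiers (UMIs, each the tag of 1 captured transcript) and at most 10% of UMIs from mitochondrially encoded genes. The Cdkn1a-high cells were the top 10% of each library by the share of a cell's UMIs that came from Cdkn1a. There were 284 such cells among 2838 cells past both limits in the ZD7288 library and 71 among 710 in the vehicle library, so 355 of 3548 in all. They were compared with cells of the same library below its median share, which were 1419 cells in the ZD7288 library. The median share was 0 in the vehicle library, so there the comparison cells were the 420 cells without any Cdkn1a UMI.

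The cells were Sprague-Dawley cortical cultures from E14.5 embryos, grown in FGF2, a factor that holds such cells as dividing progenitors. One culture received 30 µM ZD7288, a blocker of HCN channels, dissolved to 0.2% DMSO. The vehicle culture received the DMSO without the compound. Both were held for 48 h, with a change of medium at 24 h, and each was captured as 1 library by the 10x Chromium 3′ version 2 assay. The label of the treated sample spells the compound ZD2788, while the title and protocol write ZD7288. Culture, library and treatment are therefore 1 split and cannot be told apart, and cells of a library are not replicates, so no test and no p-value is given. All intervals are exact 95% intervals for counting error only.

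Cdkn1a encodes p21, an inhibitor of cyclin-dependent kinases that can halt the cell cycle before S phase and that also binds the replication clamp PCNA. Its best known activator is the transcription factor p53, which responds to DNA damage and other stress, although growth factor and differentiation signals also act on the gene. In neural stem cells p21 is studied as a brake on self-renewal, and other p53 targets include Mdm2, which limits p53 itself, Ccng1, Phlda3 and the death receptor gene Fas.

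A match to the p53 consensus sequence upstream of Cdkn1a is shown because the genes that rose with Cdkn1a included known p53 targets. Binding by p53 was not tested. RefSeq promoters of assembly GRCr8 were searched over the 250 bases before each start for the p53 consensus decamer, which reads as its own reverse complement, so that 1 search covers both strands. A pair was an exact decamer with a neighbour of at most 1 mismatch, no more than 13 bases away and not overlapping it. Of 33469 promoter windows, 2221 (6.64%) held a decamer and 268 (0.801%) held a pair. The Cdkn1a window (chr20:7150682-7150931, + strand) held a pair with no spacer between 201 and 182 bases before the start, at chr20:7150731-7150750. Capitals mark the pair, whose second decamer has 1 mismatch.
Cdkn1a promoter: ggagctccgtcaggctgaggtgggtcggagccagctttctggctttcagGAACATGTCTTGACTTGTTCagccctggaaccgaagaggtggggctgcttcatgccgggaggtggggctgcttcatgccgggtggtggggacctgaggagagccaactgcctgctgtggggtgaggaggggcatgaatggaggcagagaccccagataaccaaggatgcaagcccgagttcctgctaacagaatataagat
Pairs were also found in the windows of Ccng1 (chr10:25685099-25685118, − strand, 242 to 223 bases before the start) and Gtse1 (chr7:118830142-118830161, + strand, 31 to 12 bases before the start), which both rose in Cdkn1a-high cells of the 2 libraries. Each has 1 mismatch in 1 of its decamers, and capitals mark the whole pair.
Ccng1 pair: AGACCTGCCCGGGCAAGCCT
Gtse1 pair: GAGCAAGCTGGGGCTTGTCC
Aen and Tob1, which rose too, each held a single decamer. None was in the windows of Mdm2, Phlda3, Fas, Ephx1, Mgmt, Abhd4, Gas6, Cdkn2a, Cdkn2b, Sparc, Sulf2, Susd6 and Rps27l. Of 14 genes with a window among those higher in Cdkn1a-high cells of both libraries, 4 held a decamer (28.6%) and 2 a pair (14.3%), and of 39 windows of the p53 target list, Cdkn1a left out, 7 (17.9%) and 2 (5.13%) did. A match is a description of the letters, and its absence from this window says nothing of binding elsewhere.

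The levels that chose the cells are a description. Cdkn1a UMIs per cell ran from 2 to 94 with a median of 14 in the 284 Cdkn1a-high cells of the ZD7288 library, against 0 to 8 with a median of 2 in its below-median cells. Vehicle counts ran from 2 to 52 with a median of 5 in the 71 Cdkn1a-high cells, against 0 in all 420 comparison cells. Counted per 1000000 UMIs of the cell (CPM), the level was 667 ± 388 (SD over 284 cells) in Cdkn1a-high cells of the ZD7288 library and 372 ± 330 (SD over 71 cells) in those of the vehicle library.

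**Figure D1:**
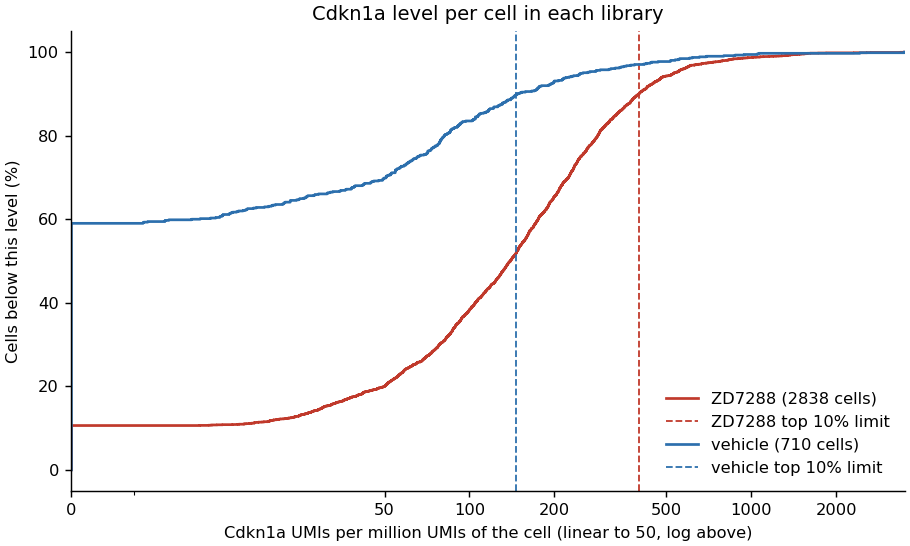
Percent of cells (y axis) below each Cdkn1a level in CPM (x axis, linear to 50 and log above) in the ZD7288 library (red, 2838 cells) and the vehicle library (blue, 710 cells). Dashed lines mark the limits of the top 10%, at 399.2 CPM in the ZD7288 library and 146.8 CPM in the vehicle library, and the vehicle curve starts at 59.2% because that share of cells had no Cdkn1a UMI.

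The same rule selected different levels in the 2 libraries, as the curves of Cdkn1a per cell show. The limit was 399.2 CPM in the ZD7288 library and 146.8 CPM in the vehicle library. The last cell inside held 12 of 30057 UMIs (399.24 CPM) in the ZD7288 library, and the first cell outside held 2 of 5011 (399.12 CPM). On the vehicle side the last cell inside held 3 of 20364 UMIs (147.32 CPM) and the first outside 2 of 13634 (146.69 CPM). At the vehicle limit 1360 of 2838 ZD7288 cells would have been members, which is 47.9% (46.1 to 49.8). At the ZD7288 limit 20 of 710 vehicle cells would have been, which is 2.82% (1.73 to 4.32). Cells without a Cdkn1a UMI made up 10.6% of the ZD7288 library (302 cells) and 59.2% of the vehicle library (420 cells), at median depths of 23940 and 17406 UMIs. The Cdkn1a-high cells held 34.5% of all Cdkn1a UMIs in the ZD7288 library and 59.0% in the vehicle library.

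Membership rested on few molecules in the vehicle library, where 34 of 71 Cdkn1a-high cells (47.9%) had fewer than 5 Cdkn1a UMIs, against 7 of 284 in the ZD7288 library. The level was therefore read again in UMIs that had not chosen the cells. Each cell's UMIs were divided at random into 2 equal sets, the top 10% of cells were taken by the first set, and Cdkn1a was counted in the second. The held-out level in the ZD7288 library was 565 CPM in Cdkn1a-high cells and 106 CPM in below-median cells, a ratio of 5.35 (5.02 to 5.70). The vehicle library had 285 CPM in Cdkn1a-high cells and 19.6 CPM in cells without a UMI in the first set, a ratio of 14.51 (11.4 to 18.6). The held-out set of 17 of 284 ZD7288 cells and of 20 of 71 vehicle cells so chosen had no Cdkn1a UMI. Of the cells chosen on the first set, 206 of 284 (72.5%) and 52 of 71 (73.2%) were also members by all UMIs.

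Depth and RNA quality differed little between the cells compared. The median depth was 24432 UMIs in Cdkn1a-high and 23275 in below-median cells of the ZD7288 library, and 17205 and 16099 UMIs in the Cdkn1a-high and comparison cells of the vehicle library. The median mitochondrial share was 5.05% and 4.85% in the ZD7288 library, and 5.76% and 5.86% in the vehicle library, in the same order. A score against simulated doublets marked 8 of the 284 and 1 of the 71 Cdkn1a-high cells, and 26 of 1419 and 1 of 420 comparison cells. The libraries shared 3 barcodes, 2 of which belonged to Cdkn1a-high cells of the ZD7288 library.

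Most but not all markers of neural stem cells were detected. Of 17 matched markers, 15 had UMIs in Cdkn1a-high cells of the ZD7288 library and 16 in those of the vehicle library. No UMI of Hes5 or Nr2e1 was in the ZD7288 cells and none of Nr2e1 in the vehicle cells. Detection in pooled cells did not set that list apart. Detected in the ZD7288 and vehicle Cdkn1a-high cells were also 9 and 8 of 11 oligodendrocyte precursor markers. So were 11 and 7 of 12 astrocyte markers and 12 and 7 of 18 neuron markers. Summed oligodendrocyte precursor markers stood at 1519 and 1379 CPM in Cdkn1a-high and below-median cells of the ZD7288 library. Their vehicle sums were 2554 and 2504 CPM in Cdkn1a-high and comparison cells. Sox2, a transcription factor of neural stem cells, stood at 248.6 CPM in Cdkn1a-high and 244.5 CPM in below-median cells of the ZD7288 library, and at 189 and 234 CPM in the Cdkn1a-high and comparison cells of the vehicle library. Vim, an intermediate filament of progenitors, was abundant in both, at 4930 and 4657 CPM in the ZD7288 library and 4636 and 4082 CPM in the vehicle library, Cdkn1a-high cells first. Endothelial markers (8 genes) had 10 and 2 UMIs in all, and microglia and blood cell markers (13 genes) 9 and 1 UMIs, in the Cdkn1a-high cells of the ZD7288 and vehicle libraries. Vwf, Tie1 and Cdh5 of the endothelial list and Ptprc, Aif1 and Csf1r of the other were at 0 in both sets of Cdkn1a-high cells.

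Genes that were higher in Cdkn1a-high cells were few, and the foremost of them recurred between the libraries. Genes counted as measured if they reached 20 CPM in the higher group and 50 UMIs over both groups, and they were called at a ratio of 1.5-fold. Of 4689 genes measured in the ZD7288 library, 39 were higher in Cdkn1a-high cells (0.832%) and 6 were lower (0.128%). Of 4674 genes measured in the vehicle library, 66 were higher (1.41%) and 70 were lower (1.5%). The ratios rested on 7384446 UMIs of Cdkn1a-high cells in the ZD7288 library and 1447366 in the vehicle library. A gene could enter through the Cdkn1a-high cells alone, and with 20 CPM asked of the comparison cells instead, 20 and 27 genes were higher and 6 and 70 lower in the ZD7288 and vehicle libraries. The counting interval spanned 1 for 0 of the ZD7288 calls and for 1 of the higher and 4 of the lower vehicle calls. Among 4362 genes measured in both libraries, 26 were called higher in the ZD7288 library and 49 in the vehicle library, and 17 in both. Those 17 were 65.4% of the ZD7288 calls and 34.7% of the vehicle calls. Ephx1, Phlda3, Mgmt, Cdkn2a, Susd6, Sulf2 and Tob1 of the 17 were under 20 CPM in the comparison cells of both libraries. Mmp2 was so in the ZD7288 library alone and Sparc in the vehicle library alone. These genes entered through the Cdkn1a-high cells, so the overlap and its percentages rest in part on the floor. Of genes called lower, 5 in the ZD7288 library and 52 in the vehicle library, none was shared. With 5 calls in the ZD7288 library, a lack of shared genes says little.

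The 17 shared genes, 5 of them on the p53 target list, included regulators of p53 and its known targets, enzymes, inhibitors of the cell cycle and extracellular proteins. Ephx1 (ENSRNOG00000003515), an epoxide hydrolase that detoxifies reactive epoxides, had the largest ratio among measured genes in both libraries. Fas, below the measured level in the vehicle library, had a ratio of 16.59 (5.73 to 58.35) there, on 15 and 5 UMIs. Ephx1 and Mgmt entered through the Cdkn1a-high cells alone, so their place rests in part on the floor. Ephx1 stood at 30.3 CPM in Cdkn1a-high cells and 2.21 CPM in below-median cells of the ZD7288 library, 13.8-fold higher (10.6 to 18.0). Its vehicle levels were 31.1 CPM in Cdkn1a-high cells and 2.998 CPM in cells without Cdkn1a, 10.4-fold higher (6.19 to 17.8), on 45 and 24 UMIs. Among cells with at most 5% mitochondrial UMIs its log2 ratio was smaller, at 2.53 against 3.78 over all cells in the ZD7288 library and at 1.75 against 3.37 in the vehicle library. Mgmt, which removes alkyl groups from guanine in DNA, was 5.40-fold higher (4.79 to 6.09) in the ZD7288 library and 8.69-fold (6.15 to 12.4) in the vehicle library. Abhd4, a lipid hydrolase, was 2.47-fold (2.27 to 2.69) and 3.04-fold (2.45 to 3.76) higher in the ZD7288 and vehicle libraries. Mmp2, a secreted protease of the extracellular matrix, was 3.40-fold (2.95 to 3.91) and 2.74-fold (2.10 to 3.54) higher. Gas6, a ligand of the TAM receptor kinases, was 1.83-fold higher (1.75 to 1.90) in the ZD7288 library, at 463 CPM against 254 CPM, and 3.40-fold higher (2.99 to 3.87) in the vehicle library, at 267 CPM against 78.5 CPM.

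Sparc, a secreted matrix protein, Sulf2, an extracellular sulfatase, Susd6 and the uncharacterised locus AABR07058158.1 were among the other shared genes, with ratios from 1.69 to 2.63 in the ZD7288 library. Gtse1, a G2 protein that restrains p53, was 1.84-fold (1.61 to 2.10) and 1.67-fold (1.25 to 2.22) higher in the ZD7288 and vehicle libraries. Ier5, an immediate early gene, was 2.34-fold higher (1.64 to 3.29) in the vehicle library and had a ratio of 1.42 (1.29 to 1.55) in the ZD7288 library, under the 1.5-fold rule.

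Known p53 targets rose with Cdkn1a in both libraries. Of 44 matched targets, Cdkn1a left out, 19 were measured in the ZD7288 library, of which 12 were higher and 0 lower by the rule for list members, which asks for a log2 ratio past 0.32 up or down. Of all measured genes, 3.18% were higher and 2.05% lower by that rule. Of these targets 17 were measured in the vehicle library, of which 13 were higher and 1, Hexim1, was lower, against 7.34% and 8.77% of all measured genes. The median log2 ratio of the measured targets was 0.41 in the ZD7288 library and 0.65 in the vehicle library, where all measured genes had medians of -0.02 and -0.01. The floor let Fas, Phlda3 and Tob1 in through the Cdkn1a-high cells alone in the ZD7288 library, and Sertad1, Sesn2, Phlda3 and Tob1 in the vehicle library, so these counts rest in part on the floor, as do the counts of members below. With 20 CPM asked of the comparison cells instead, 9 of 16 targets were higher and 0 lower in the ZD7288 library (median 0.36), where 2.24% of all genes past that floor were higher and 2.11% lower. In the vehicle library 9 of 13 were higher and 1 lower (median 0.47), where 4.83% were higher and 9.2% lower. With no floor, 36 of all 44 targets were above and 8 below a ratio of 1 in the ZD7288 library, and 34 above and 10 below in the vehicle library, many of them on few UMIs. Of the 17 targets measured in both libraries, 10 were higher in both and 16 had a ratio above 1 in both. The list was chosen with earlier results of these data known.

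**Figure D2:**
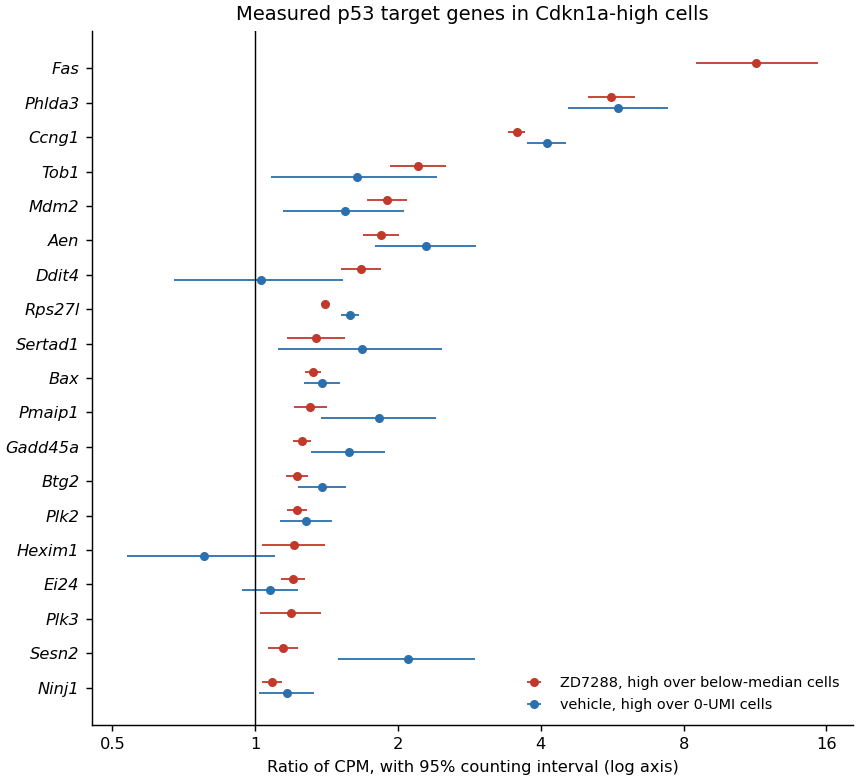
Ratio of CPM in Cdkn1a-high cells over comparison cells (x axis, log scale) for each p53 target measured in at least 1 library, with 95% counting intervals, for the ZD7288 library (red) and the vehicle library (blue). Fas, Phlda3 and Ccng1 lie farthest right, with Fas and Plk3 measured in the ZD7288 library alone, and Hexim1 in the vehicle library lies left of 1.

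Ccng1 (ENSRNOG00000003256), which encodes cyclin G1 and is a p53 target that acts with Mdm2, carried the most UMIs of the targets past 1.5-fold in the ZD7288 library. It stood at 529 CPM in Cdkn1a-high cells and 149 CPM in below-median cells of the ZD7288 library, 3.56-fold higher (3.41 to 3.71). Its vehicle levels were 528 CPM in Cdkn1a-high cells and 128 CPM in cells without Cdkn1a, 4.11-fold higher (3.74 to 4.52). Cell by cell, the median Ccng1 level was 432 CPM in Cdkn1a-high cells of the ZD7288 library (10% and 90% points 81.1 and 992 CPM), against a median of 117 CPM (0 and 296 CPM) in below-median cells. The vehicle median was 383 CPM (85.2 and 1087 CPM) in Cdkn1a-high cells, against 105 CPM (0 and 274 CPM) in comparison cells. The groups overlapped, and 54.9% of Cdkn1a-high cells in either library (156 of 284 and 39 of 71) lay above the level that 95% of their comparison cells stayed under.

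Phlda3 (ENSRNOG00000009068), a p53 target that inhibits AKT signalling, was 5.63-fold higher (5.03 to 6.31) in the ZD7288 library, at 89.7 CPM in Cdkn1a-high and 15.9 CPM in below-median cells. Its vehicle ratio was 5.82-fold higher (4.56 to 7.42), at 98.1 CPM and 16.9 CPM in Cdkn1a-high and comparison cells. With every cell thinned to 5000 UMIs, Phlda3 had a UMI in 32.04% (26.7 to 37.8) of Cdkn1a-high and 7.89% (6.54 to 9.42) of below-median cells of the ZD7288 library, and in 42.3% (30.6 to 54.6) and 7.38% (5.07 to 10.3) of the Cdkn1a-high and comparison cells of the vehicle library. Without thinning the shares were 71.5% and 28.7% in the ZD7288 library, and 66.2% and 23.8% in the vehicle library. Fas, the death receptor, stood at 21.3 CPM in Cdkn1a-high and 1.87 CPM in below-median cells of the ZD7288 library, 11.4-fold higher (8.49 to 15.4). Fas was below the level called measured in the vehicle library, with 15 UMIs in Cdkn1a-high and 5 in comparison cells.

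Mdm2, the ubiquitin ligase that degrades p53, was 1.90-fold higher (1.72 to 2.09) in the ZD7288 library, at 79.2 CPM in Cdkn1a-high and 41.8 CPM in below-median cells. It was 1.54-fold higher (1.15 to 2.06) in the vehicle library, at 42.8 and 27.7 CPM. Aen, a p53-induced nuclease, was 1.84-fold (1.69 to 2.01) and 2.29-fold (1.79 to 2.92) higher in the ZD7288 and vehicle libraries. Tob1, an antiproliferative protein, was 2.20-fold (1.92 to 2.52) and 1.64-fold (1.08 to 2.42) higher. The apoptosis genes Bax and Pmaip1 rose as well by the rule for list members, Bax by ratios of 1.32 (1.27 to 1.38) and 1.38 (1.26 to 1.51) and Pmaip1 by 1.31 (1.21 to 1.41) and 1.83 (1.37 to 2.40) in the ZD7288 and vehicle libraries. Among ZD7288 cells with at most 5% mitochondrial UMIs the log2 ratios of Bax and Pmaip1 were 0.23 and 0.29, under the rule.

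Not every target followed to the same degree. Ninj1 had ratios of 1.08 (1.03 to 1.14) in the ZD7288 library and 1.17 (1.02 to 1.33) in the vehicle library, and Ei24 ratios of 1.20 (1.13 to 1.27) and 1.08 (0.936 to 1.23), all under the rule. Sesn2, a target of both p53 and ATF4, had a ratio of 1.15 (1.07 to 1.23) in the ZD7288 library and was 2.10-fold higher (1.495 to 2.91) in the vehicle library. Ddit4, an inhibitor of mTORC1 that also answers to both, was 1.67-fold higher (1.52 to 1.84) in the ZD7288 library and had a ratio of 1.03 (0.673 to 1.53) in the vehicle library. Hexim1, an inhibitor of P-TEFb, had a ratio of 0.778 (0.536 to 1.10) in the vehicle library, an interval that spans 1. Whether Sesn2 and Ddit4 differed between the libraries was not tested.

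Summed over the list, p53 targets made up 4652 CPM in Cdkn1a-high and 3204 CPM in below-median cells of the ZD7288 library, and 4217 and 2621 CPM in the Cdkn1a-high and comparison cells of the vehicle library. Rps27l, a ribosomal protein paralog and p53 target, was the most abundant member at 1479 and 1052 CPM in the ZD7288 library and 1794 and 1135 CPM in the vehicle library, and it shares sequence with Rps27. Without Rps27l the sums were 3173 and 2153 CPM in the ZD7288 library and 2423 and 1487 CPM in the vehicle library, Cdkn1a-high cells first. At 5000 UMIs per cell, Cdkn1a-high cells of the ZD7288 library held 23.1 ± 7.65 list UMIs and below-median cells 16.1 ± 4.52 (SD over cells). Vehicle Cdkn1a-high cells held 21.2 ± 9.59 and comparison cells 13.2 ± 3.996.

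The other inhibitors of cyclin-dependent kinases did not move as a group. Cdkn2a (ENSRNOG00000059837), whose locus encodes p16 and p19ARF from overlapping transcripts that these 3′ counts do not separate, was 3.42-fold higher (2.95 to 3.96) in the ZD7288 library, at 42.4 CPM in Cdkn1a-high and 12.4 CPM in below-median cells. Cdkn2a was 4.84-fold higher (3.23 to 7.23) in the vehicle library, at 33.9 and 6.996 CPM. Cdkn2b, which encodes p15, was 1.91-fold higher (1.75 to 2.08) in the ZD7288 library, at 97.8 and 51.3 CPM. The vehicle library gave Cdkn2b 21 UMIs in Cdkn1a-high and 32 in comparison cells, below the measured level.

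Cdkn1b, which encodes p27, had ratios of 0.929 (0.789 to 1.09) in the ZD7288 library and 0.946 (0.629 to 1.38) in the vehicle library. Cdkn2c, which encodes p18, had ratios of 0.933 (0.833 to 1.04) and 0.969 (0.771 to 1.21). Both intervals of each gene span 1. Cdkn3, a phosphatase of mitotic cells, was lower by the rule for list members in the ZD7288 library, with a ratio of 0.740 (0.690 to 0.792), and had a ratio of 0.902 (0.794 to 1.02) in the vehicle library. Cdkn1c, which encodes p57, had 26 and 179 UMIs in the Cdkn1a-high and below-median cells of the ZD7288 library and was not measured. It had 6 and 84 UMIs in the Cdkn1a-high and comparison cells of the vehicle library, also below the measured level. Its ratios on these few UMIs were 0.704 (0.448 to 1.07) in the ZD7288 library and 0.395 (0.141 to 0.896) in the vehicle library. Among 13 matched G1 cyclins, CDKs and E2F genes, 6 were measured in each library and 1, Ccnd1, was higher, where 3.18% of all measured genes in the ZD7288 library and 7.34% in the vehicle library were. Ccnd1, the cyclin D1 gene, stood at 1033 CPM in Cdkn1a-high and 712 CPM in below-median cells of the ZD7288 library, a ratio of 1.45 (1.42 to 1.49), and had a ratio of 1.25 (1.18 to 1.32) in the vehicle library. Among cells with at most 5% mitochondrial UMIs its log2 ratio was 0.12 in the ZD7288 library, against 0.54 over all cells, and 0.29 in the vehicle library, both under the rule.

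Most Cdkn1a-high cells still held S phase and G2/M transcripts. With each cell thinned to 5000 UMIs, at least 1 UMI of the S phase list (50 genes) was present in 282 of 284 Cdkn1a-high cells of the ZD7288 library and all 71 of the vehicle library, and at least 1 of the G2/M list (57 genes) in all of both. The comparison cells were as high, at 1418 and 1419 of 1419 cells in the ZD7288 library and 417 and 419 of 420 in the vehicle library. Single UMIs can come from RNA free in the suspension, and no cell type that lacks these genes was set apart here, so the part of free RNA was not tested. The counts below therefore start at 10 UMIs of a list.

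At least 10 S phase UMIs were held by 60.6% (54.6 to 66.3) of Cdkn1a-high cells and 71.7% (69.3 to 74.1) of below-median cells of the ZD7288 library. The vehicle shares were 71.8% (59.9 to 81.9) of Cdkn1a-high cells and 77.6% (73.3 to 81.5) of cells without Cdkn1a. At least 10 G2/M UMIs were held by 73.9% (68.4 to 79.0) and 85.7% (83.8 to 87.5) in the ZD7288 library, and by 80.3% (69.1 to 88.8) and 93.8% (91.1 to 95.9) in the vehicle library, Cdkn1a-high cells first. Cells with fewer than 10 UMIs of either list made up 22.2% (17.5 to 27.5) of Cdkn1a-high cells and 8.95% (7.52 to 10.6) of below-median cells of the ZD7288 library. They made up 16.9% (9.05 to 27.7) of Cdkn1a-high cells and 2.86% (1.49 to 4.94) of comparison cells of the vehicle library.

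**Figure D3:**
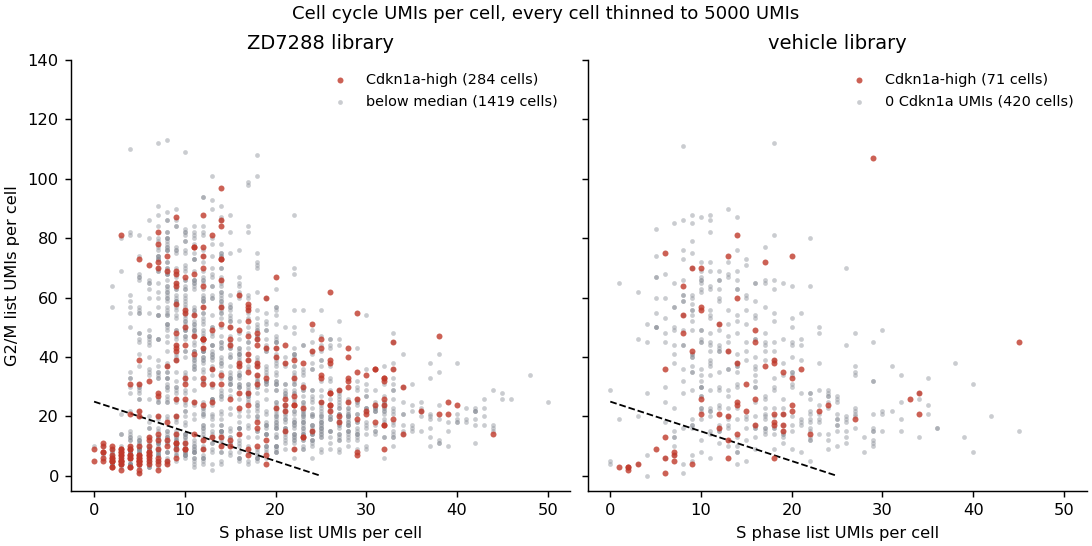
UMIs of the G2/M list (y axis) against UMIs of the S phase list (x axis) per cell thinned to 5000 UMIs, in the ZD7288 library (left) and the vehicle library (right), for Cdkn1a-high cells (red) and comparison cells (grey). The dashed line marks 25 UMIs of both lists together, and red points lie on both sides of it, with 198 of 284 and 56 of 71 Cdkn1a-high cells on or above it.

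Taking both lists together, 198 of 284 Cdkn1a-high cells of the ZD7288 library held at least 25 UMIs, which is 69.7% (64.01 to 75.01), against 1165 of 1419 below-median cells, which is 82.1% (80 to 84.1). Vehicle cells passed in 56 of 71 Cdkn1a-high cells, which is 78.9% (67.6 to 87.7), against 390 of 420 cells without Cdkn1a, which is 92.9% (89.96 to 95.1). In the ZD7288 library the median count was 46.5 UMIs in Cdkn1a-high and 48 in below-median cells, and the 10% points were 10 and 17. The vehicle medians were 42 and 50.5 UMIs and the 10% points 12 and 27. At least 50 UMIs were held by 45.4% and 48.1% in the ZD7288 library and by 42.2% and 52.4% in the vehicle library, Cdkn1a-high cells first. From 20 to 30 UMIs, near the 25 UMI limit, lay 9.15% of Cdkn1a-high and 9.58% of below-median cells of the ZD7288 library, and 5.63% and 9.29% of the Cdkn1a-high and comparison cells of the vehicle library. Without thinning, 97.9% and 99.8% in the ZD7288 library, and 93.0% and 97.9% in the vehicle library, passed 25 UMIs. Among ZD7288 cells with at most 5% mitochondrial UMIs the shares lay closer, at 75% of 164 Cdkn1a-high and 79.6% of 820 below-median cells. Among such vehicle cells the order of the shares turned, at 100% of 16 Cdkn1a-high and 95.9% of 98 comparison cells.

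With each cell thinned to 5000 UMIs, shares of cells with a UMI of a single cell cycle gene had overlapping intervals between the groups. This held for each of 8 genes in both libraries. Unthinned shares are given without intervals and are not covered by that statement. At 5000 UMIs the share was lower in Cdkn1a-high cells for 5 of 8 genes in the ZD7288 library and 6 of 8 in the vehicle library. A UMI of 1 gene can come from free RNA, so these are not shares of cells that express it. The widest gaps were those of Mcm6, a replication helicase subunit, in the ZD7288 library, at 36.6% (31.0 to 42.5) of Cdkn1a-high and 44.5% (41.9 to 47.1) of below-median cells, and of Top2a, a topoisomerase, in the vehicle library, at 26.8% (16.9 to 38.6) and 38.3% (33.7 to 43.2). Cdk1, the mitotic kinase, had a UMI in 50.4% and 52.0% in the ZD7288 library at 5000 UMIs, and in 76.4% and 84.4% unthinned. Mki67, a proliferation antigen, had a UMI in 20.1% (15.6 to 25.2) of Cdkn1a-high and 22.7% (20.5 to 24.96) of below-median cells of the ZD7288 library at 5000 UMIs, and in 26.8% (16.9 to 38.6) and 32.9% (28.4 to 37.6) of the Cdkn1a-high and comparison cells of the vehicle library. Pcna, the replication clamp that p21 binds, had a UMI in 66.5% (60.7 to 72.0) and 64.9% (62.4 to 67.4) in the ZD7288 library, and in 59.2% (46.8 to 70.7) and 64.3% (59.5 to 68.9) in the vehicle library. Unthinned, the Mki67 shares were 50.7%, 59.3%, 54.9% and 60.0% and the Pcna shares 94.0%, 95.1%, 90.1% and 89.5% in the same order of groups.

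By level, 8 of 36 measured S phase genes were lower and 0 higher in Cdkn1a-high cells of the ZD7288 library, with a median log2 ratio of -0.16, where 3.18% of all measured genes were higher and 2.05% lower. They included the replication licensing genes Cdc6, 1.59-fold lower, and Cdt1, 1.57-fold lower, and Cdca7, 1.53-fold lower. Of 37 measured in the vehicle library 1 was lower and 3 were higher, with a median of 0.00, near the 7.34% higher and 8.77% lower among all measured genes. Cdc6 and Cdt1 had vehicle ratios of 0.995 (0.695 to 1.39) and 1.14 (0.806 to 1.57). Of 47 measured G2/M genes, 5 were lower and 1 higher in the ZD7288 library (median -0.18), and 17 were lower and 2 higher in the vehicle library (median -0.21). The kinetochore genes Cenpf and Cenpa were lower in both, with ratios of 0.723 (0.668 to 0.783) and 0.741 (0.680 to 0.806) in the ZD7288 library and 0.787 (0.674 to 0.915) and 0.777 (0.645 to 0.928) in the vehicle library. Among cells with 25 or more cell cycle UMIs their log2 ratios were -0.24 and -0.25 in the ZD7288 library and -0.16 and -0.19 in the vehicle library, under the rule. The higher G2/M genes were Gtse1 in both libraries and Ckap2 in the vehicle library.

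Cells with few cell cycle transcripts were more often Cdkn1a-high. Of cells with fewer than 25 S phase and G2/M UMIs, 14.05% (11.4 to 17.1) in the ZD7288 library and 26.3% (15.5 to 39.7) in the vehicle library were members. Of cells with 25 or more, 8.895% (7.75 to 10.2) in the ZD7288 library and 8.58% (6.54 to 10.99) in the vehicle library were. Cdkn1a itself stood at 259 CPM in cells under 25 and 181 CPM in cells from 25 UMIs in the ZD7288 library, and at 135 and 51.8 CPM in the vehicle library.

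The rise of p53 targets was present on both sides of that limit. Among cells with 25 or more cell cycle UMIs, 10 of 18 measured targets were higher and 0 lower in Cdkn1a-high cells of the ZD7288 library (median log2 ratio 0.33), where 2.42% of all measured genes were higher and 1.57% lower. Of 16 vehicle targets 12 were higher and 0 lower (median 0.63), where 8.88% of all measured genes were higher and 8.09% lower. Among cells with fewer than 25, 15 of 20 were higher and 0 lower in the ZD7288 library (median 0.51), where 12.1% of all measured genes were higher and 13.8% lower. The vehicle library had 7 of 8 higher and 0 lower (median 0.74), where 14.7% of all measured genes were higher and 18.5% lower, on 15 Cdkn1a-high and 30 comparison cells. The limit was set on the S phase and G2/M UMIs themselves, so their own ratios on either side of it are conditioned on it. From 25 UMIs the median of the S phase list was 0.03 and that of the G2/M list 0.02 in the ZD7288 library, and they were 0.12 and -0.06 in the vehicle library. Under 25 UMIs 15 of 23 S phase genes were lower (median -0.48) and 6 of 18 G2/M genes (median -0.18) in the ZD7288 library, and 1 of 5 (median -0.03) and 3 of 4 (median -1.07) in the vehicle library.

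The Cdkn1a-high cells also differed among themselves along this limit. Among those of the ZD7288 library 86 had fewer than 25 cell cycle UMIs and 198 had 25 or more, with 819 and 608 CPM of Cdkn1a. Of 20 p53 targets measured between these 2 sets, 13 were higher and 0 lower in the cells under 25 (median log2 ratio 0.41), where 14.8% of all measured genes were higher and 24.3% lower by that rule. The vehicle cells, 15 and 56, had 8 of 13 higher and 1 lower (median 0.42), where 13.6% of all measured genes were higher and 33.5% lower.

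Summed p53 targets were higher at each step of the Cdkn1a share in each library, while single targets were not always. The summed list in the ZD7288 library stood at 3204 CPM in cells below the median, 3454 CPM from the median to 75%, 3755 CPM from 75 to 90%, 4262 CPM from 90 to 98% and 6140 CPM in the top 2% (57 cells). The vehicle sum stood at 2621 CPM in cells without Cdkn1a, then at 2762, 3080, 3819 and 5759 CPM in the same steps, the last from 15 cells. Ccng1 alone went through 149, 188, 261, 416 and 963 CPM in the ZD7288 library and 128, 148, 240, 427 and 918 CPM in the vehicle library. Mdm2 stood at 41.8, 45.5, 48.1, 55.9 and 168 CPM in the ZD7288 library, so that most of its difference lay in the top 2%. In the vehicle library Mdm2 stood at 27.7, 33.4, 36.7, 32.2 and 84.0 CPM, lower at the fourth step than at the third, and the 15 cells of the last step held 25 of its 62 UMIs in Cdkn1a-high cells. Gadd45a, a stress sensor, was also lower at the fourth step in the ZD7288 library, at 276.9, 313, 343, 327.5 and 426 CPM.

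**Figure D4:**
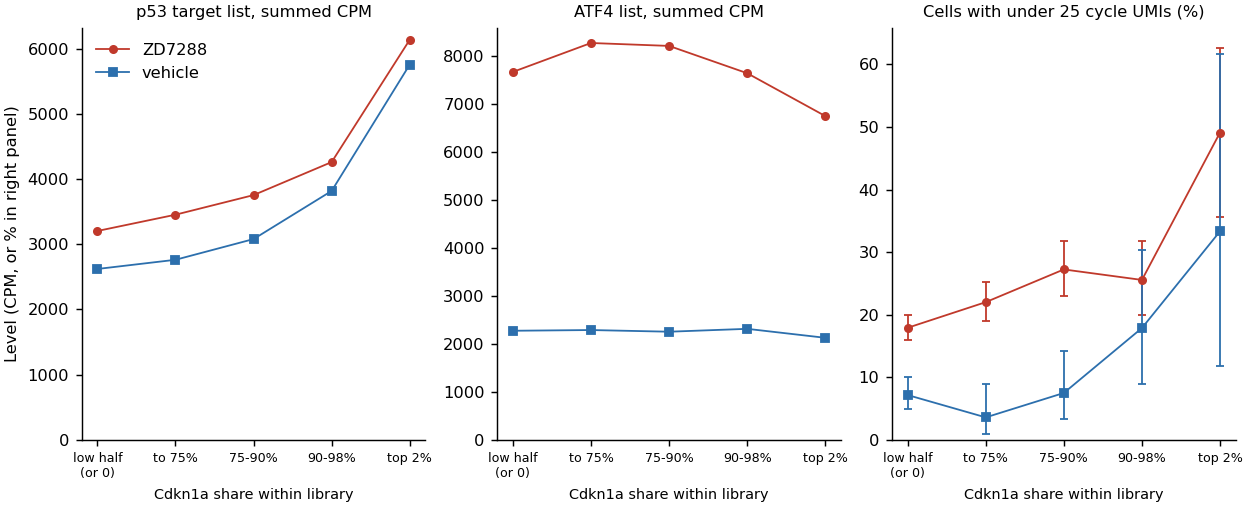
Summed CPM of the p53 target list (left), summed CPM of the ATF4 list (middle) and percent of cells with fewer than 25 cell cycle UMIs at 5000 UMIs, with 95% binomial intervals (right), in 5 steps of the Cdkn1a share from cells below the median (0 UMIs in the vehicle library) to the top 2%. The p53 list rises at each step in both libraries to 6140 and 5759 CPM in the ZD7288 (red) and vehicle (blue) libraries, while the ATF4 list lies between 6749 and 8272 CPM in the ZD7288 library and is lower in the vehicle library at each step.

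The share of cells with fewer than 25 cell cycle UMIs was highest in the top 2%. For ZD7288 cells it was 17.9%, 22.0%, 27.2%, 25.6% and 49.1% (35.6 to 62.7) over the 5 steps. For vehicle cells it was 7.14%, 3.57%, 7.48%, 17.9% and 33.3% (11.8 to 61.6), the last from 15 cells. Extreme cells were of both kinds. The cell with the highest share in the ZD7288 library held 22 Cdkn1a UMIs of 6521 (3374 CPM) with 7 of Ccng1, and 35 cell cycle UMIs after thinning. The next held 67 of 25176 UMIs (2661 CPM) with 33 of Ccng1 and 12 cell cycle UMIs. The highest cell of the vehicle library held 52 of 21413 UMIs (2428 CPM) with 14 of Ccng1 and 90 cell cycle UMIs, and the third held 11 of 10480 (1050 CPM) with 19 of Ccng1 and 7 cell cycle UMIs.

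The ATF4 and amino acid response, which separates the libraries, had few members past the rule between Cdkn1a-high and low cells of either. Of 35 measured members in the ZD7288 library, 1 was higher, Ddit4, and 1 lower, Cth, with a median log2 ratio of -0.04, where 3.18% of all measured genes were higher and 2.05% lower. Among 25 members measured in the vehicle library 3 were higher and 1 was lower (median -0.01), where 7.34% and 8.77% of all measured genes were. The summed level was 7456 CPM in Cdkn1a-high and 7669 CPM in below-median cells of the ZD7288 library, and 2273 and 2272 CPM in the Cdkn1a-high and comparison cells of the vehicle library. Over the 5 steps of Cdkn1a in the ZD7288 library the sum was 7669, 8272, 8211, 7642 and 6749 CPM. Among cells with fewer than 25 cell cycle UMIs 14 of 35 members were lower in Cdkn1a-high cells of the ZD7288 library and 2 higher, with a median of -0.29, where 12.1% of all measured genes were higher and 13.8% lower by that rule. The vehicle cells under that limit, 15 Cdkn1a-high and 30 comparison cells, went the other way, with 4 of 8 members higher and 0 lower (median 0.34), where 14.7% of all measured genes were higher and 18.5% lower.

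**Figure D5:**
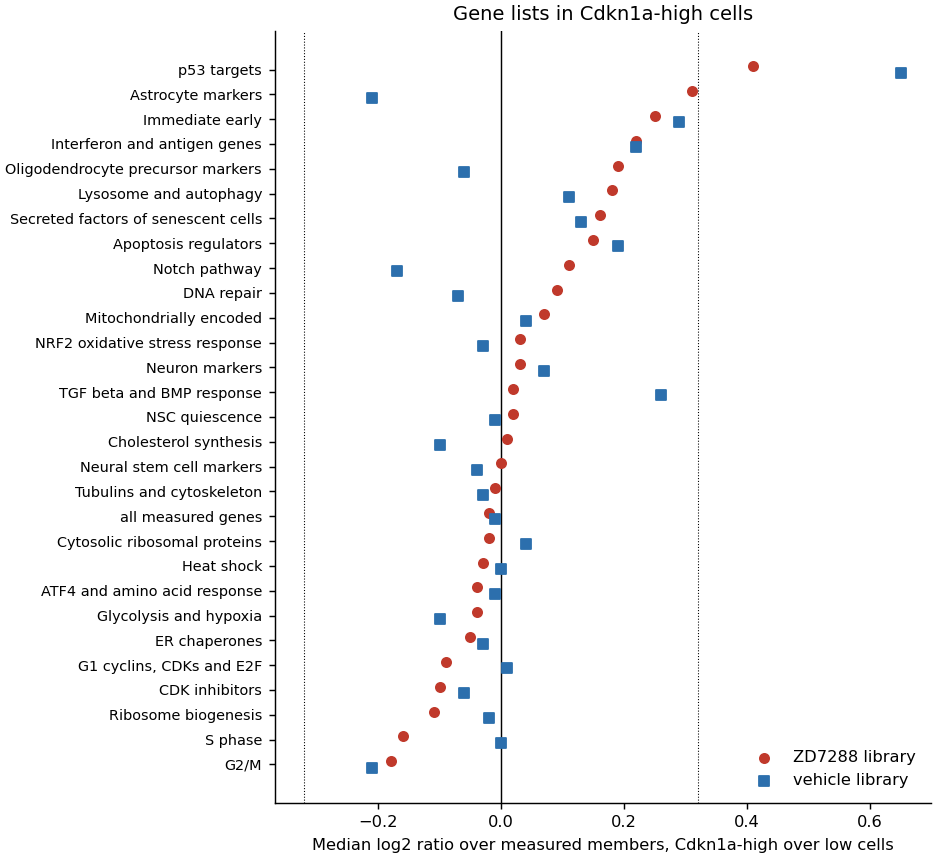
Median log2 ratio of CPM in Cdkn1a-high over comparison cells (x axis) over the measured members of each gene list with at least 3 of them, and over all measured genes (y axis), for the ZD7288 library (red circles) and the vehicle library (blue squares), with dotted lines at 0.32 in either direction. The p53 targets, at 0.41 and 0.65, are the one list beyond a dotted line in both libraries, and the G2/M list lies lowest in the ZD7288 library, at -0.18.

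Other programmes moved less, as the plot of list medians shows. Beside the counts that follow, 3.18% of all measured genes were higher and 2.05% lower in the ZD7288 library, and 7.34% higher and 8.77% lower in the vehicle library. Of 20 measured NRF2 targets of the oxidative stress response, 2 were higher and 0 lower in Cdkn1a-high cells of the ZD7288 library, and 2 of 16 higher and 1 lower in the vehicle library. Hmox1, heme oxygenase 1, had a ratio of 1.35 (1.24 to 1.45) in the ZD7288 library. Of 9 measured immediate early genes 2 were higher in the ZD7288 library and 4 in the vehicle library, with none lower in either. Of 24 measured genes of lysosome and autophagy 4 were higher in the ZD7288 library, Gabarapl1, Laptm4b, Lamp2 and Tpp1, with a median of 0.18, of which Lamp2 and Tpp1 had log2 ratios of 0.15 and -0.10 with at most 5% mitochondrial UMIs, and 0 of 21 passed the rule in the vehicle library, with a median of 0.11. Of 9 measured secreted factors of senescent cells 1 was higher and 0 lower in the ZD7288 library, and of 6 in the vehicle library 1 was higher and 1 lower. The higher one in the ZD7288 library was Igfbp5, an IGF binding protein, at 40.4 CPM in Cdkn1a-high and 17.3 CPM in below-median cells, 2.33-fold higher (2.02 to 2.68), while 12 of 36 listed genes had no UMI in either group. The log2 ratio of Igfbp5 was 2.72 in cells with fewer than 25 cell cycle UMIs and 0.12 in cells with 25 or more, which are 198 of the 284 Cdkn1a-high cells. Ribosome biogenesis, ER chaperone and cholesterol synthesis genes had 0 members past the rule in the ZD7288 library and 1, 2 and 2 in the vehicle library.

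Markers of other cell types did not differ alike between Cdkn1a-high and comparison cells of the 2 libraries. By the rule for list members, 3.18% of all measured genes were higher and 2.05% lower in the ZD7288 library. The vehicle shares were 7.34% and 8.77%. Of 6 measured astrocyte markers 3 were higher and 0 lower in Cdkn1a-high cells of the ZD7288 library (median log2 ratio 0.31), and of 4 in the vehicle library 0 were higher and 1 lower (median -0.21). With at most 5% mitochondrial UMIs the ZD7288 median of these markers was -0.02. It was 0.68 under 25 cell cycle UMIs and 0.11 from 25. Apoe, made by astrocytes and by some stem cells, stood at 35.6 CPM in Cdkn1a-high and 13.5 CPM in below-median cells of the ZD7288 library, 2.63-fold higher (2.26 to 3.06), a log2 ratio of 1.39 that was 0.62 with at most 5% mitochondrial UMIs. It had 19 and 32 UMIs in the Cdkn1a-high and comparison cells of the vehicle library, below the measured level. Summed pericyte, fibroblast and mesenchymal markers (14 genes) stood at 34.4 CPM in Cdkn1a-high and 21.2 CPM in below-median cells of the ZD7288 library and at 6.22 and 8.50 CPM in the Cdkn1a-high and comparison cells of the vehicle library. Of the 14 genes, 11 had UMIs in Cdkn1a-high cells of the ZD7288 library, where Postn, Col1a2 and Abcc9 were at 0, and 3 in those of the vehicle library, where Acta2, Pdgfrb and Col1a1 were among those at 0. At 5000 UMIs 92.6% of Cdkn1a-high and 95.4% of below-median cells of the ZD7288 library had no UMI of this list. Their part in the rise of Mmp2, Sparc and Igfbp5 was not tested.

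Set directly against each other, the Cdkn1a-high cells of the 2 libraries had like levels of some p53 targets and unlike levels of others. Ccng1 stood at 529 CPM in Cdkn1a-high cells of the ZD7288 library and 528 CPM in those of the vehicle library, a ratio of 1.00 (0.928 to 1.09). Phlda3 stood at 89.7 and 98.1 CPM, a ratio of 0.914 (0.761 to 1.10), and Bax at 410.5 and 422.8 CPM, a ratio of 0.971 (0.890 to 1.06), where all 3 intervals span 1. Other members of the list were higher in the ZD7288 cells, among them Fas at 21.3 and 10.4 CPM (2.05-fold, 1.21 to 3.75, on 157 and 15 UMIs), Tob1 at 42.7 and 23.5 CPM (1.82-fold, 1.27 to 2.67), Gadd45a at 348 and 109 CPM (3.21-fold, 2.73 to 3.79), Sesn2 at 127 and 35.9 CPM (3.53-fold, 2.67 to 4.76) and Mdm2 at 79.2 and 42.8 CPM (1.85-fold, 1.42 to 2.44). In all 12 of 19 measured targets were higher and 0 lower, where 28.3% of all measured genes were higher and 15.5% lower by that rule. The median log2 ratio of the list was 0.55, and that of all 4887 measured genes was 0.08. Cells low in Cdkn1a differed between the libraries to a like degree, with 10 of 16 targets higher and 1 lower in below-median ZD7288 cells over vehicle cells without Cdkn1a (median 0.65), where 25.7% of all measured genes were higher and 12.9% lower. Members of the ATF4 list were higher in Cdkn1a-high cells of the ZD7288 library in 34 of 35 cases, with a median of 1.69. The same 2 libraries gave a median of 1.80 between their cells low in Cdkn1a, below-median ZD7288 over vehicle cells without Cdkn1a, with 34 of 35 members higher.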

How the data were processed

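Single-cell RNA sequencing had been done on 2 cultures, 1 per group. The authors deposited 1 matrix of raw counts of UMIs for 25399 genes and 4691 barcodes (3849 ZD7288, 842 vehicle), with gene symbols and barcodes in tables beside it. Counts were made with Cell Ranger, per the submitters' processing notes, and the matrix header gives version 3.0.2. The genome build, annotation, rule for keeping barcodes and any equalisation of depth are unknown: not given in the sources used here. A barcode's suffix was matched to the number in a sample title, and the names of the libraries rest on that match.

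The limits removed 1023 barcodes under 5000 UMIs and 120 others over 10% mitochondrial UMIs. Each member set was found within its library. UMIs were summed per group of cells and scaled to CPM, so deeper cells weigh more. Ratios have exact Clopper-Pearson intervals on the share of both counts, and shares of cells exact binomial ones, all for counting error only at 95%. A count of 0 allowed up to 3 counts. Of 761 symbols in 33 lists, 736 were matched by symbol, or by synonym from a RefSeq table of GRCr8 that gave names only. Promoter sequences came from RefSeq, GRCr8. Doublets were scored against simulated ones at 0.8% per 1000 cells, and the 68 marked (64 and 4 in the ZD7288 and vehicle libraries) stayed in.

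The members, lists and rules were chosen with earlier results of these data known. Named genes were, per library, 10 measured genes at the top and 10 at the bottom of the ratios (ordered by the nearer interval bound), all CDK inhibitor genes, 8 cell cycle genes and up to 4 members of each list past the rule in the ZD7288 library, or its 2 most abundant. 1 gene that the rule names is not reported here. Further genes were picked for the text with their values in view. Other settings covered the top share, comparison cells, depth, mitochondrial limit, doublets, scaling, floor, fold and thinning. Scripts were tested on simulated counts. Python 3.11.15, numpy 2.4.6, scipy 1.17.1, pandas 2.3.3 and scikit-learn 1.9.0 were used.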

Additional observations from a re-analysis of the deposited data

Results flagged for a closer look

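For 3 genes the ratio of Cdkn1a-high to comparison cells passed the rule for list members in opposite directions in the 2 libraries, and the difference between the libraries was not tested. Msi1, an RNA-binding protein of neural stem cells, had a log2 ratio of -0.62 in the ZD7288 library, at 24.2 CPM in Cdkn1a-high and 37.3 CPM in below-median cells, and of 0.52 in the vehicle library, at 26.3 and 18.4 CPM, where the interval of the ratio spans 1 (0.973 to 2.05). Aldoc, a glycolytic enzyme of astrocytes and radial glia, had log2 ratios of 0.37 in the ZD7288 library and -0.57 in the vehicle library, where Cdkn1a-high cells held 38 of its UMIs. The comparison cells were not alike, being below-median cells in the ZD7288 library and cells without Cdkn1a in the vehicle library. Against ZD7288 cells without Cdkn1a, the ZD7288 log2 ratio of Aldoc was 0.05, under the rule. It was 0.19 with at most 5% mitochondrial UMIs and 0.05 from 25 cell cycle UMIs. Cnp, an oligodendrocyte lineage gene, had log2 ratios of 0.40 in the ZD7288 library, at 88.4 and 66.9 CPM, and -0.38 in the vehicle library, at 119.5 and 155 CPM. With at most 5% mitochondrial UMIs the Cnp log2 ratios were -0.04 in the ZD7288 library and -0.34 in the vehicle library.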

How the results depend on the processing

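No paired analysis was possible because each group was 1 library. The p53 list kept a positive median log2 ratio under each setting run, from 0.27 to 0.58 in the ZD7288 library and from 0.44 to 0.80 in the vehicle library. Counts of genes past 1.5-fold depended on the settings, and the cause was not tested. In the ZD7288 library the 39 higher genes became 75 with the top 5% as members, 20 with at most 5% mitochondrial UMIs and also with 20 CPM asked of the comparison cells, 197 under and 25 from 25 cell cycle UMIs, 19 at a floor of 50 CPM, 305 with no floor and 15 at 2-fold. The 6 lower genes became 23 (top 5%), 1 (top 20%), 18 (cells with 0 Cdkn1a UMIs as comparison), 3 (all other cells as comparison), 11 (members from 1 of 2 random sets of UMIs), 135 (under 25 cell cycle UMIs), 1 (floor of 50 CPM), 231 (no floor) and 0 (2-fold). In the vehicle library the 66 higher genes became 208 (top 5%), 22 (top 20%), 178 (at most 5% mitochondrial UMIs), 173 (1 of 2 sets of UMIs), 15 (floor of 50 CPM), 27 (20 CPM asked of the comparison cells), 213 (no floor) and 14 (2-fold). Its 70 lower genes became 264, 13, 314, 198, 8, 399 and 4 under these settings but the floor in the comparison cells, 46 with members taken within 5 ranges of depth and 111 scaled without mitochondrial and ribosomal genes. The share of cells with at least 25 cell cycle UMIs also moved. In the ZD7288 library it was 97.9% unthinned, 90.1% at 10 UMIs, 45.4% at 50 UMIs and 61.3% with the top 5% in Cdkn1a-high cells. In below-median cells it was 99.8% unthinned, 97.2% at 10, 48.1% at 50, 79.4% with all other cells as comparison and 79.6% both with at most 5% mitochondrial UMIs (75% in Cdkn1a-high cells) and at 13 of 2500 UMIs. In Cdkn1a-high cells of the vehicle library it was 93.0% unthinned, 91.6% at 10, 42.2% at 50 and 100% with at most 5% mitochondrial UMIs. In vehicle cells without Cdkn1a it was 97.9%, 98.6%, 52.4% and 95.9% under the same 4 settings. Some single genes reversed, and the cause was not tested. In the ZD7288 library these were Tpp1 (-0.10) and Cnp (-0.04) with at most 5% mitochondrial UMIs and Tuba1c (0.68) under 25 cell cycle UMIs. In the vehicle library they were Cenpa (0.21) and Cenpf (0.19) with at most 5% mitochondrial UMIs, Id3 with 1 of 2 sets of UMIs (0.01) and under 25 cell cycle UMIs (0.02), and at that limit Cd81 (-0.23), Ccnb1 (0.70), Ube2c (0.15), Tob1 (-0.30) and Cdca2 (1.28), on 15 and 30 cells. Leaving out barcodes seen in both libraries and the floor in the comparison cells were added after the data were seen.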

Other observations

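No gene was lower by 1.5-fold in Cdkn1a-high cells of both libraries. This says little, as 0.128% of measured genes were lower in the ZD7288 library and 1.5% in the vehicle library. In the ZD7288 library Id3, an inhibitor of differentiation that answers to BMP signals, was 1.72-fold lower, at 20.7 CPM in Cdkn1a-high and 35.7 CPM in below-median cells, with a vehicle ratio of 0.720 (0.479 to 1.05), and Tuba1c, a tubulin, was 1.53-fold lower. In the vehicle library Pfkl, a phosphofructokinase of glycolysis, was 2.22-fold lower, at 18.7 CPM in Cdkn1a-high and 41.4 CPM in comparison cells, on 27 and 331 UMIs. Ring1, a Polycomb protein, was 2.06-fold lower and Bnip3, a mitophagy gene induced by hypoxia, 1.81-fold lower there, while their ratios in the ZD7288 library were 1.01 (0.905 to 1.12) and 0.962 (0.865 to 1.07). Gjc1, a gap junction protein, was 1.87-fold lower in the vehicle library and had a ratio of 0.770 (0.669 to 0.883) in the ZD7288 library. By the rule for list members, 3.18% of all measured genes were higher and 2.05% lower in the ZD7288 library. The vehicle shares were 7.34% and 8.77%. Of 15 measured genes linked to stem cell quiescence, 4 were higher and 2 lower by that rule in the ZD7288 library (median log2 ratio 0.02). In the vehicle library 2 of 15 were higher and 3 lower (median -0.01). One of them, Cd81, a tetraspanin, was 1.93-fold higher (1.82 to 2.04) in Cdkn1a-high cells of the ZD7288 library, at 239 and 124 CPM, and had a ratio of 1.28 (1.07 to 1.52) in the vehicle library. Myl9, a smooth muscle and stress fibre myosin light chain, was 1.78-fold higher (1.52 to 2.07) in the ZD7288 library. It stood at 17.8 CPM in below-median cells there, under the floor. Vehicle Cdkn1a-high and comparison cells held 8 and 45 UMIs of Myl9, below the measured level. Gap43, a growth cone protein, had a ratio of 1.43 (1.33 to 1.53) in the ZD7288 library. Its vehicle ratio was 1.20 (0.967 to 1.48), an interval that spans 1. Among ZD7288 cells with at most 5% mitochondrial UMIs the log2 ratios of Cd81 and Myl9 were 0.51 and 0.52, under 1.5-fold. That of Gap43 was 0.18, under the rule for list members.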
